A study of Ooceraea biroi with 96 samples.

Results

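Brain gene expression was compared between 1-day-old clonal raider ants (Ooceraea biroi) of genotype M and of genotype B that had all been reared in M colonies. The libraries were chosen by their labels alone, as every library of a 1-day-old ant from social environment M. They comprised 20 libraries of genotype M, written MinM (genotype M in environment M), and 9 libraries of genotype B, written BinM, which together are 29 of the 96 libraries of the study. In the study as a whole, larvae of lineages B and M were moved soon after hatching into colonies of either lineage, and the whole brain of a single ant was sequenced per library at an age of 1 or 8 days. No treatment other than the social environment is given in the labels, and both groups compared here share that environment and age. The other libraries used were 14 MinB and 7 BinB brains of day 1 (genotypes M and B in B colonies) and 14 MinM and 10 BinM brains of day 8.

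The clonal raider ant has no queens, and its workers lay unfertilised eggs that develop into genetically near-identical daughters. A clonal lineage therefore acts as a genotype, and individuals of different lineages can be raised side by side in one kind of colony. Here each genotype is represented by a single lineage, so a difference between M and B is a difference between these lineages. Within M colonies, MinM ants were reared in a colony of their own lineage and BinM ants in one of the other lineage. Genotype and rearing by the own or the other lineage therefore cannot be told apart within this comparison. In B colonies the arrangement is reversed. In brain tissue taken whole, more cells of a type and more RNA per cell cannot be told apart, and neither can more transcript and a higher share of reads assigned to the gene in 1 lineage.

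The 29 libraries held 13.9 to 22.2 megacounts in MinM and 15.3 to 22.9 megacounts in BinM (means 17.4 and 18.2). Total counts, the number of genes detected, the share of counts taken by the 10 most abundant genes, and a maturity score did not differ by more than the spread between libraries in exact two-sided permutation tests over the 29 (p = 0.429, 0.873, 0.733 and 0.721; adjusted p = 0.873 for each). The maturity score is the mean log2 CPM, the counts scaled to each library's size, of 229 genes that were at least 4-fold lower at day 8 than at day 1 in B colonies. It averaged 1.82 ± 0.71 in MinM (SD, n = 20) and 1.91 ± 0.39 in BinM (SD, n = 9). The MinM scores ran from 0.209 to 3.11 and enclosed the BinM range of 1.47 to 2.48. Of the 29, MinM replicate 16 correlated least with the other day 1 libraries, at 4.08 median absolute deviations below their median. MinB replicate 12 and BinB replicate 9 also lay more than 4 below it. The whole-brain label could not be checked against cell type markers, because the gene identifiers came without product names.

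Genotype M and genotype B brains in M colonies differed in 348 of 9834 genes (3.54%), of which 165 were higher in M (1.68% of genes tested) and 183 lower (1.86%; edgeR quasi-likelihood F test, adjusted p under 0.05). Differences in both directions were mostly small. Of the called genes, 176 differed by less than 1.5-fold, 70 by 1.5- to 2-fold, 49 by 2- to 4-fold and 53 by at least 4-fold. The median size of the log2 fold change was 0.57 over called genes, against 0.08 over all genes tested, whose signed median was 0.01. At 66 genes (0.671% of those tested) no MinM library overlapped any BinM library. All 66 were called, with 31 higher and 35 lower in M, whereas the libraries of the 2 genotypes overlapped at the other 282 called genes. Without MinM replicate 16 the count of called genes was 354, and without all 3 libraries that stood apart it was 459.

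**Figure D1:**
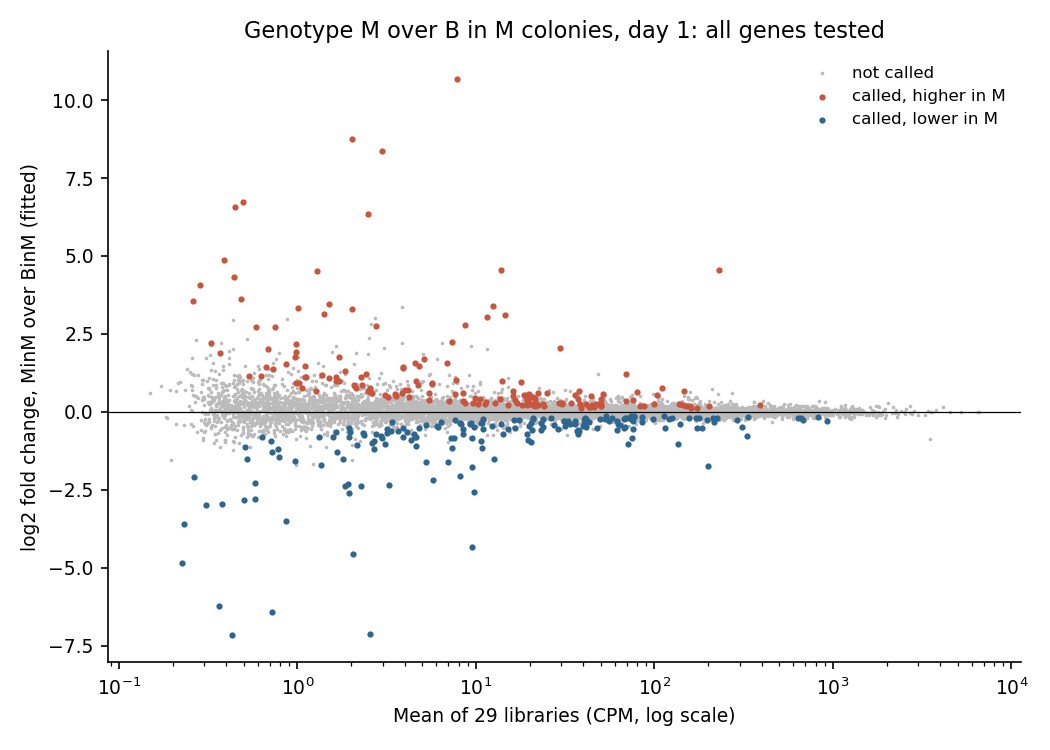
Each point is 1 of the 9834 genes tested, placed by its mean level over the 29 libraries (CPM, log scale) and its fitted log2 fold change of MinM over BinM. The 165 called genes higher in M and the 183 lower in M are coloured. The largest fitted values belong to genes with 0 or nearly 0 counts in 1 genotype, where the fitted size depends on the prior count.

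A few genes were read almost only in genotype M. LOC113562066, a protein-coding gene on chromosome 6 (8378774 to 8379678), had a lowest, median and highest level of 6.61, 11.2 and 16.5 CPM in MinM, against 0 counts in each of the 9 BinM libraries. Every MinM library was therefore above every BinM library, by at least 616-fold on average when 3 counts over the 9 BinM libraries are taken as the floor (adjusted p = 1.73e-28). In B colonies it averaged 10.7 ± 1.46 CPM in MinB (SD, n = 14) and had no count in 7 BinB brains. At day 8 it averaged 10.98 ± 2.67 CPM in MinM (SD, n = 14) and had no count in 10 BinM brains. LOC113562844 (chromosome 10, 1127920 to 1129159), also protein-coding, followed the same pattern at a lower count, save for 1 count in 1 of 10 BinM brains of day 8. Its MinM levels had a minimum of 2.08, a median of 2.77 and a maximum of 3.91 CPM, and again all 9 BinM libraries were at 0. The difference was at least 160-fold over the same floor (adjusted p = 1.83e-23).

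LOC113563188, a long noncoding RNA (lncRNA) on chromosome 13 (26920 to 29494), ran from 1.69 to 8.47 CPM in MinM with a median of 3.62. A single count, in BinM replicate 8, was all that 9 BinM libraries held. The groups did not overlap, and the gene was called (adjusted p = 1.49e-20). With a single count the size is poorly fixed. The pooled rates (counts of a group over its summed library sizes) differed 689-fold, with an exact 95% counting interval of 123 to 27200. LOC113561389 (chromosome 11, 7634243 to 7635142) stood at 0.718, 1.90 and 2.75 CPM in MinM (lowest, median, highest) and at 0, 0.06 and 0.169 CPM in BinM. Its groups were also separate (log2 fold change 4.53 ± 0.36, SE; adjusted p = 3.67e-14). An annotated gene lies across it on the opposite strand, and since the sources used here do not state how strand was treated in counting, its reads may be shared.

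LOC105276730 (chromosome 6, 13950518 to 13953888) also met the limits of a mean of at least 1 CPM in M and under 0.1 CPM in B, but through a few libraries. It reached 39.5 CPM in MinM replicate 15 and 24.2 CPM in replicate 14. The next highest was 4.65 CPM, the median MinM library had 0.0225 CPM, and 10 of 20 had 0 counts. The BinM libraries ran from 0 to 0.162 CPM, within the MinM range. Its call (adjusted p = 0.043) was lost in 11 of the 29 fits that left out 1 library, namely each of the 9 BinM libraries and MinM replicates 14 and 15, at adjusted p of 0.0547 to 0.0924. The fitted log2 fold change of 6.36 became 1.85 with limma-voom (adjusted p = 0.634), 3.53 with DESeq2 (adjusted p = 0.186) and 2.79 with the title number as a block (adjusted p = 0.396). The call was also lost without a filter (adjusted p = 0.0549) and with the maturity score as a covariate (adjusted p = 0.0609). Scattered high libraries were seen in MinB too, with a median of 0.0289 and a maximum of 18.7 CPM, against at most 0.232 CPM in BinB.

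In the opposite direction, 4 called genes had a mean of at least 1 CPM in B and under 0.1 CPM in M. Called genes with a mean under 1 CPM in both groups are outside these limits, also where 1 genotype was near 0. LOC105283886 (protein-coding, chromosome 13, 2411491 to 2417676) had 1 count over the 20 MinM libraries, against 0.96, 1.27 and 2.12 CPM (lowest, median, highest) in BinM. The groups did not overlap (adjusted p = 3.47e-25), and the pooled rate was 472-fold lower in M with an exact 95% counting interval of 83.9 to 18700, set by that 1 count. LOC113563356 (chromosome 14, 8277676 to 8283690) had a highest MinM value of 0.224 CPM and 0 counts in 9 of 20 MinM libraries. Its BinM levels were 6.45, 8.02 and 10.5 CPM, far above any MinM library, and the pooled rate was 156-fold lower in M (adjusted p = 5.48e-24). Both genes were also low in genotype M outside these libraries. In B colonies LOC113563356 averaged 0.0365 ± 0.0426 CPM in MinB (SD, n = 14) and 6.41 ± 2.06 CPM in BinB (SD, n = 7), and LOC105283886 averaged 0.00392 ± 0.0147 and 1.65 ± 0.621 CPM in the same groups.

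LOC113563366 (chromosome 14, 320739 to 327381) ran from 0 to 0.0898 CPM in MinM and from 0.835 to 3.62 CPM in BinM with a median of 2.16. The pooled rate was 113-fold lower in M with no overlap (adjusted p = 4.56e-19), although this gene overlaps another on the opposite strand. The lncRNA LOC105285038 (chromosome 11, 27614 to 29283) had 3 counts over the MinM libraries, 18 of which were at 0, and 181 counts over BinM. The BinM libraries varied widely among themselves, between 0.128 and 2.33 CPM, yet the lowest of them was still above the highest MinM library at 0.107 CPM (pooled rate 128-fold lower in M, exact 95% counting interval 43 to 626; adjusted p = 6.02e-13).

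**Figure D2:**
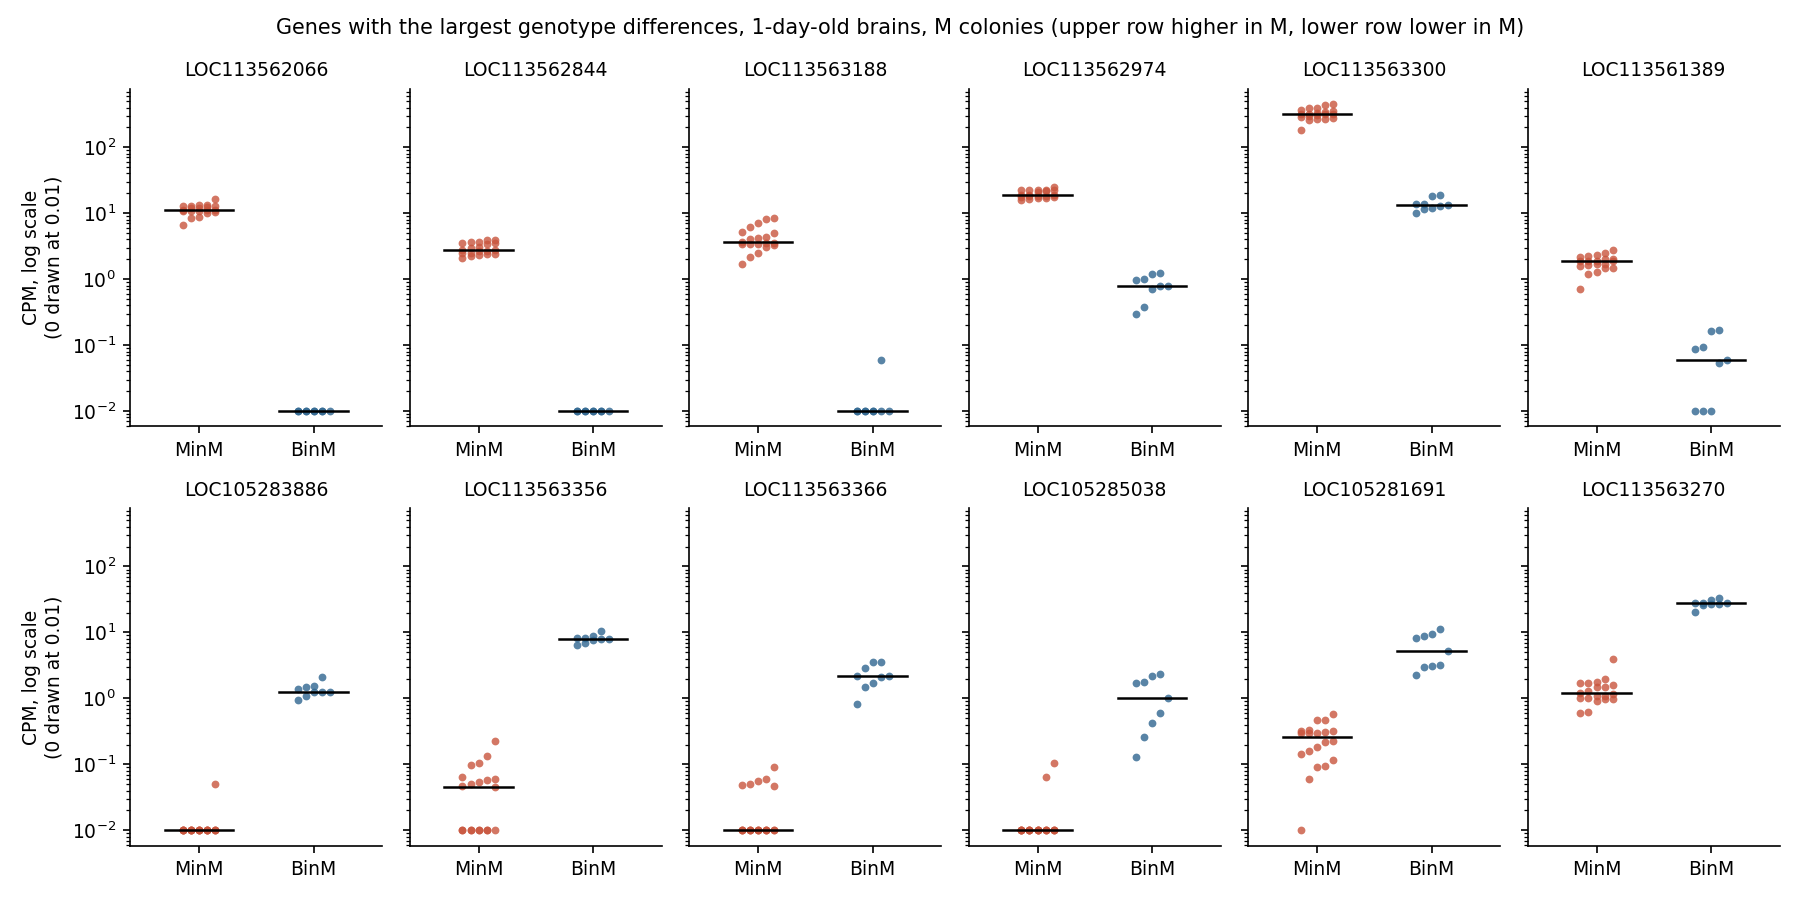
Level of 12 genes in each of the 20 MinM and 9 BinM libraries of day 1 (points, CPM on a log scale, with 0 drawn at 0.01; bars are medians). The upper row shows genes higher in M and the lower row genes lower in M. In each panel the points of the 2 genotypes do not overlap.

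Other genes were read in both genotypes at very different levels. LOC113563300 (protein-coding, chromosome 13, 1762323 to 1767441) combined a large difference with a high level. Its lowest, median and highest MinM values were 182.6, 320.1 and 447.2 CPM, against 10.1, 13.4 and 19.2 CPM in BinM. The lowest MinM brain was thus far above the highest BinM brain (log2 fold change 4.56 ± 0.18, SE; adjusted p = 5.88e-26). Per kilobase of exon this was 203.8 CPM in MinM and 8.66 CPM in BinM. Of the called genes with a mean of 200 CPM or more over all 29 libraries, no other differed by 2-fold.

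LOC113562974 (chromosome 11, 13023953 to 13025784) had the lowest adjusted p of all genes. It measured 15.8, 18.8 and 25.1 CPM in MinM (lowest, median, highest) and 0.30, 0.797 and 1.24 CPM in BinM (log2 fold change 4.56 ± 0.15, SE; adjusted p = 5.94e-29). LOC113563270 (chromosome 13, 5481763 to 5484393), a gene with a single exon, was the counterpart among genes lower in M. It stood at 0.599, 1.198 and 3.99 CPM in MinM and at 20.2, 27.6 and 32.8 CPM in BinM, again without overlap (log2 fold change −4.32 ± 0.17, SE; adjusted p = 7.39e-27). Because an annotated gene on the same strand overlaps it, some of its reads may be shared.

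Further genes with large changes were lower in M. LOC105274458, LOC113561427, LOC105284358 and the lncRNAs LOC105283424 and LOC105275778 had log2 fold changes of −3.51 to −2.31 without overlap between the genotypes. LOC105274458 and LOC105284358 overlap a gene on the other strand. LOC105283424 illustrates the group, with 0.453, 0.717 and 1.56 CPM in MinM (lowest, median, highest) and 2.76, 4.13 and 5.85 CPM in BinM (log2 fold change −2.60 ± 0.20, SE; adjusted p = 3.2e-15). It lies next to LOC113561427 on chromosome 12 (3113284 to 3122090 for the pair), and both are transcribed from the minus strand.

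Higher in M by a large mean factor, but with overlapping groups, were LOC113562773 and LOC105279452. LOC113562773 (chromosome 10, 10100102 to 10104029) spread from 0 to 3.81 CPM in MinM with a median of 1.24, and from 0 to 0.456 CPM in BinM with a median of 0.0602. Most MinM brains were above all BinM brains, but some MinM brains were as low as the BinM group (log2 fold change 3.35 ± 0.63, SE; adjusted p = 0.000243). LOC105279452 (chromosome 12, 10747770 to 10749114) was more uneven, at 0 to 8.13 CPM in MinM with a median of 0.524, against 0 to 0.578 CPM in BinM with a median of 0.0651 (log2 fold change 3.45 ± 1.02, SE; adjusted p = 0.0418). The call was lost in 15 of the 29 fits that left out 1 library (MinM replicates 1, 2, 5, 6, 9, 13, 16 or 20, or any BinM replicate but 1 and 4), at adjusted p of 0.0505 to 0.0842. It was also lost with limma-voom, at a log2 fold change of 2.06 (adjusted p = 0.622), with the title number as a block, at 2.84 (adjusted p = 0.171), and without a filter (adjusted p = 0.0531). In B colonies its difference was not called and had the opposite sign (−1.58 ± 0.87, SE; adjusted p = 0.237).

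Small differences could be as regular as large ones. LOC105284457 (protein-coding, chromosome 6, 16873235 to 16879846) was 1.7-fold higher in M. It measured 113.4, 125.2 and 142.3 CPM in MinM (lowest, median, highest) and 67.3, 71.2 and 83.3 CPM in BinM. The 2 ranges were narrow and far apart, and the fitted log2 fold change was 0.77 ± 0.04 (SE; adjusted p = 1.43e-22). The same gene differed by 0.74 ± 0.04 in B colonies and by 0.80 ± 0.05 in M colonies at day 8. The difference of LOC105282002 (chromosome 7, 5278643 to 5279953) was larger, at 3.37-fold, with the lower levels in M. LOC105282002 measured 3.84 to 6.64 CPM in MinM against 14.98 to 23.2 CPM in BinM (log2 fold change −1.75 ± 0.09, SE; adjusted p = 4.91e-21). An oppositely oriented gene overlaps it. Of the 66 genes with no overlap between genotypes, 10 differed by less than 1.5-fold, the smallest by 0.29 on the log2 scale.

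Of 1192 genes that averaged 200 CPM or more over the 29 libraries, 15 were called (1.26%, beside 3.54% of all genes), 3 higher and 12 lower in M. LOC105279007 (chromosome 9, 8835959 to 8843561) measured 234.1, 276.3 and 345.9 CPM in MinM and 345.2, 385.2 and 412.2 CPM in BinM. The groups touched only because the highest MinM library, replicate 16, was just above the lowest BinM libraries, at 345.2 and 345.5 CPM (log2 fold change −0.47 ± 0.05, SE; adjusted p = 2.78e-10). Besides LOC113563300, the abundant genes higher in M were LOC105287272 (405.5 ± 41.5 CPM in MinM, SD, n = 20, and 350.0 ± 29.3 CPM in BinM, SD, n = 9) and LOC105277269 (211.9 ± 14.02 and 184.1 ± 10.1 CPM in the same groups). Their log2 fold changes were 0.21 ± 0.05 and 0.20 ± 0.04 (SE; adjusted p = 0.00351 and 0.000508).

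LOC105286109 (chromosome 12, 70926 to 91612) had a larger mean difference and a larger spread. It ran from 124.1 to 711.4 CPM in MinM and from 182.7 to 828.4 CPM in BinM, so that the groups overlapped over most of their ranges (log2 fold change −0.76 ± 0.22, SE; adjusted p = 0.0343). The call was lost without BinM replicate 3, 7 or 8, at adjusted p of 0.0563, 0.0922 and 0.158. It was also lost, at the threshold itself, with limma-voom (log2 fold change −0.77, adjusted p = 0.05). LOC105279274 (chromosome 7) averaged 201.3 ± 25.3 CPM in MinM (SD, n = 20) and 249.9 ± 45.7 CPM in BinM (SD, n = 9). Its log2 fold change was −0.31 ± 0.08 (SE; adjusted p = 0.0122), and its call was lost without BinM replicate 7 (adjusted p = 0.0525) or 8 (adjusted p = 0.0614).

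Called genes were found next to each other at 23 places, as runs of at least 2 neighbouring tested genes with the same sign that took in 51 genes. Of these, 4 runs held 3 or more genes. On chromosome 9, 4 neighbouring protein-coding genes between 4374284 and 4402164 were higher in M. LOC105285039 measured 11.04 to 23.4 CPM in MinM and 0.395 to 5.76 CPM in BinM. LOC113562561 on the opposite strand measured 13.9 to 31.2 CPM in MinM and 1.08 to 6.06 CPM in BinM, and LOC105285042 measured 5.44 to 16.9 CPM in MinM and 0.903 to 3.55 CPM in BinM. None of these 3 overlapped between genotypes, and their log2 fold changes were 3.41 ± 0.25, 3.10 ± 0.22 and 2.79 ± 0.25 (SE). LOC113562566, which lies within LOC105285042 on the same strand and may share its reads, overlapped between genotypes (2.17 ± 0.39, SE; adjusted p = 0.000107). The highest BinM value of LOC105285039 and LOC113562561 came from BinM replicate 8 in both cases, while the next BinM libraries stood at 1.95 and 2.71 CPM. Of the M-only genes, that library held no count of LOC113562066 or LOC113562844 and the single BinM count of LOC113563188. The gene before the run, LOC105283416, had a log2 fold change of 2.31 ± 0.78 (SE) that was not called (adjusted p = 0.0995), and the gene after it, LOC105279114, was at 0.14 ± 0.30.

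On chromosome 11, LOC105275343, LOC113562974 and LOC113562975 lie within 8.14 kb (13022187 to 13030327) on alternating strands and were all higher in M. LOC105275343 measured 4.38 to 10.1 CPM in MinM and 1.35 to 3.72 CPM in BinM, and LOC113562975 measured 7.92 to 11.7 CPM in MinM and 1.36 to 3.40 CPM in BinM. Their log2 fold changes of 1.47 ± 0.17 and 2.26 ± 0.13 lay on either side of the larger one of LOC113562974. None of the 3 overlapped between genotypes. The tested genes next to the run on either side were not called, and the first after it, LOC105275349, differed by −0.02 ± 0.05 (SE) at 182.0 CPM in MinM and 184.3 CPM in BinM.

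The other runs of 3 lay near chromosome starts. On chromosome 11, the lncRNA LOC105285038, LOC105281691 (annotated as misc_RNA) and the protein-coding LOC105280910 were lower in M between 27614 and 268344. LOC105281691 measured 0 to 0.583 CPM in MinM and 2.30 to 11.2 CPM in BinM without overlap (log2 fold change −4.56 ± 0.37, SE; adjusted p = 5.41e-14). LOC105280910 had no count in 15 of 20 MinM libraries but reached 0.406 CPM in 1 of them, within the BinM range of 0.169 to 1.03 CPM, and it overlaps other genes on both strands. On chromosome 12, LOC105286103, LOC113563075 and LOC105286102 follow each other on the minus strand between 13917 and 25590, and all were lower in M. LOC113563075 in the middle measured 1.93 to 4.32 CPM in MinM and 7.13 to 12.3 CPM in BinM (−1.59 ± 0.12, SE). LOC105286103 at 64.2 to 79.6 CPM in MinM and 80.7 to 95.2 CPM in BinM (−0.29 ± 0.04), and LOC105286102 at 33.5 to 52.0 CPM in MinM and 54.3 to 67.8 CPM in BinM (−0.51 ± 0.05), differed less but also without overlap.

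**Figure D3:**
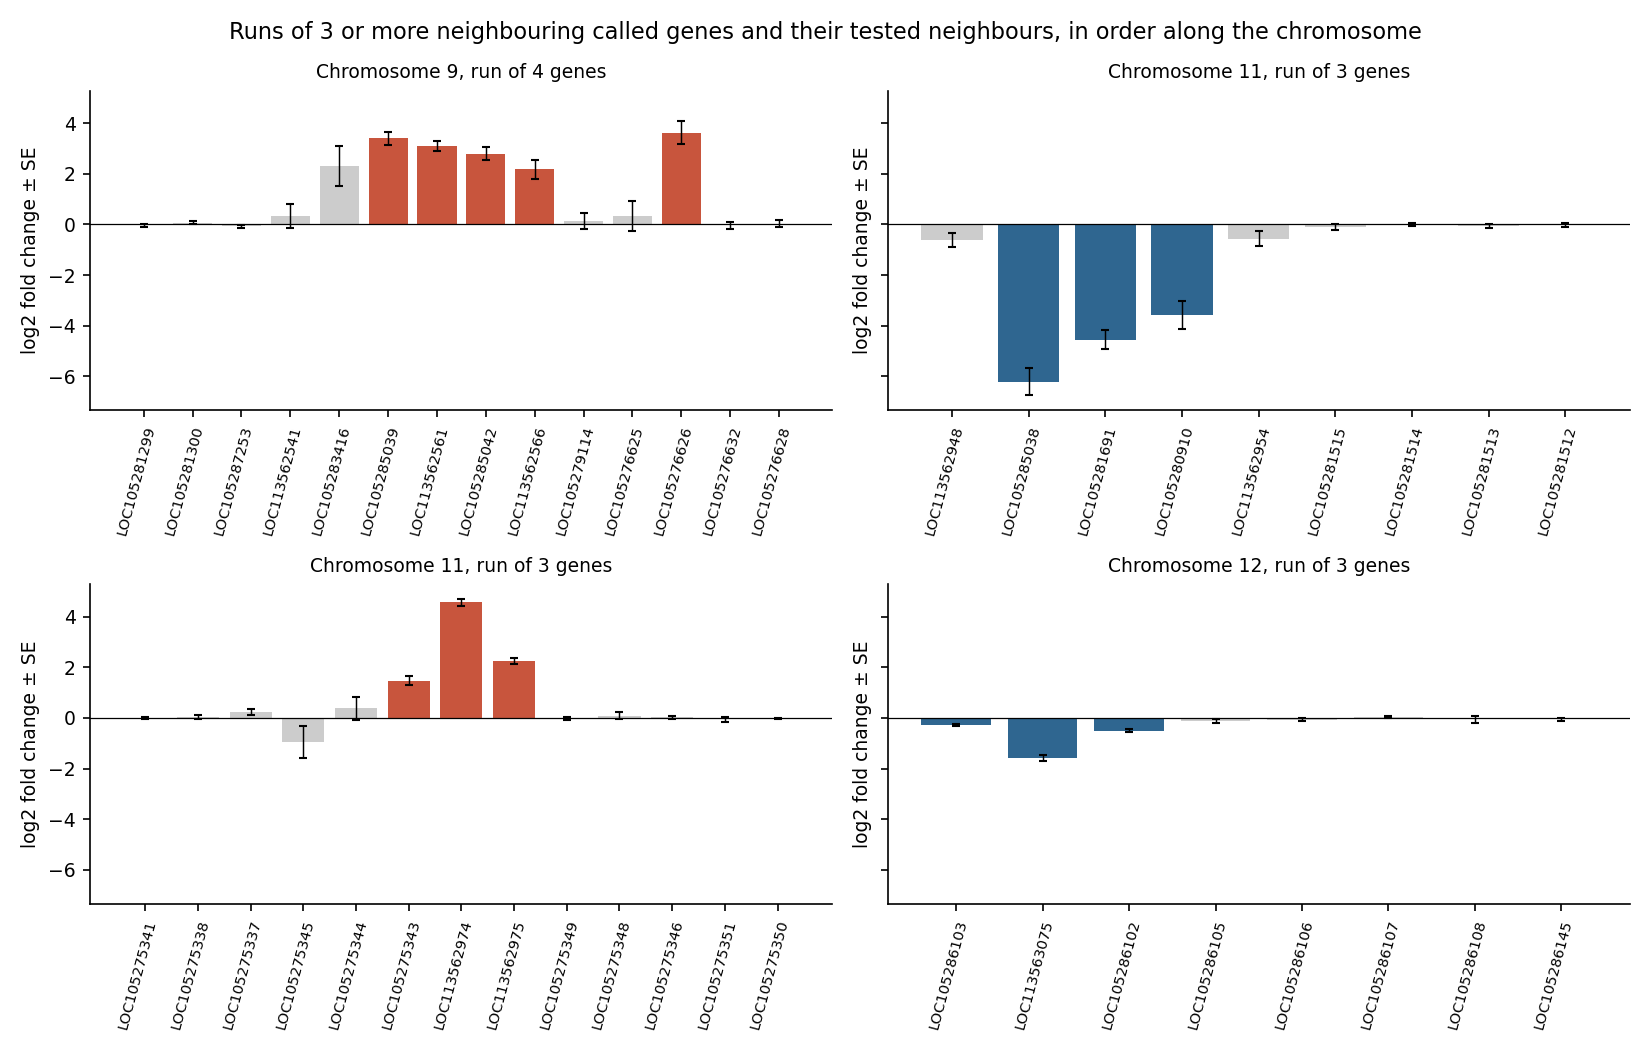
Fitted log2 fold change of MinM over BinM (bars, with SE) for the genes of the 4 runs of 3 or more called neighbours and for the tested genes on each side, in order along the chromosome and not to distance. Red bars are called higher in M, blue bars are called lower in M and grey bars were not called. Outside the runs most bars are near 0, and LOC105276626 (3.62 ± 0.46), farther along chromosome 9, was also called.

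The called genes were spread over all 14 chromosomes, with the highest share on chromosome 13. It had 37 calls among 347 genes (10.7%; 18 higher and 19 lower in M), against 311 of 9487 on the other chromosomes (3.28%). The other chromosomes ranged from 2.25% (chromosome 8) to 4.92% (chromosome 14). Within 100 kb of the outermost annotated feature of a chromosome, a limit chosen after the data were seen, 24 of 208 genes were called (11.5%), against 324 of 9624 farther in (3.37%). Of lncRNAs, 33 of 541 were called (6.1%; 16 higher and 17 lower), with a median size of 0.87 on the log2 scale. Of protein-coding genes, 314 of 9263 were called (3.39%), with a median size of 0.54. Over all genes tested, called or not, the median sizes were 0.24 for lncRNAs and 0.08 for protein-coding genes. Of genes that overlap another annotated feature, 138 of 4011 were called (3.44%), and of those that do not, 210 of 5823 (3.61%). By read number, the called share was 4.58% under 1 CPM, 5.87% at 1 to 10 CPM, 3.17% at 10 to 100 CPM and 1.68% at 100 CPM or more. The median size of the called changes was smaller in each higher class, at 2.21, 0.86, 0.36 and 0.25 on the log2 scale. Over all genes tested, called or not, it fell in the same order, at 0.32, 0.17, 0.064 and 0.054. The fall with level is thus not particular to called genes.

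**Figure D4:**
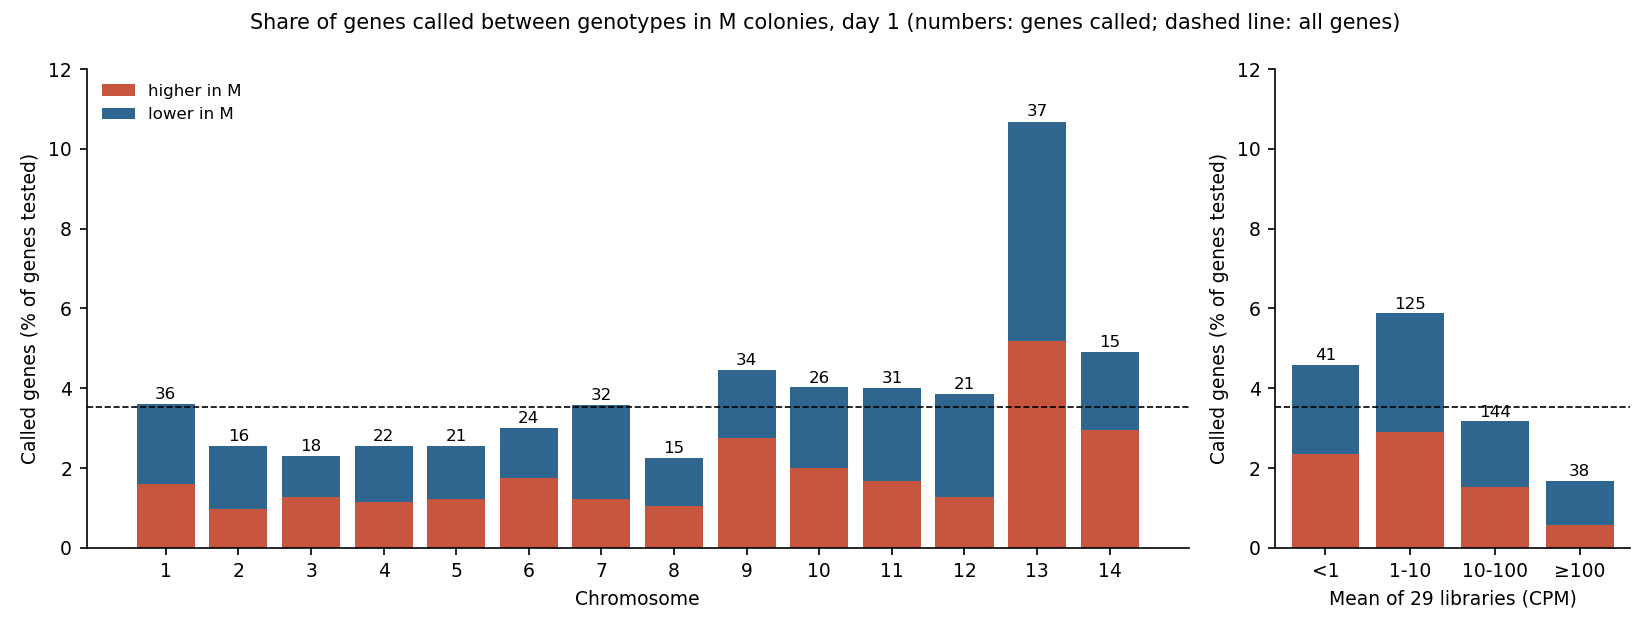
Share of tested genes called between MinM and BinM brains of day 1, by chromosome (left) and by mean level over the 29 libraries (right, CPM). Bars are split into genes higher (red) and lower (blue) in M, numbers give the genes called, and the dashed line marks the share over all genes, 3.54%. Chromosome 13 stands at 10.7%.

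The same genotype contrast was measured in B colonies at day 1, in 14 MinB and 7 BinB brains that share no library with the 29. There 978 of 9834 genes were called (9.95%), 384 of them higher in M (3.9%) and 594 lower (6.04%). Of the 348 genes called in M colonies, 342 (98.3%) had the same sign in B colonies, where 68.2% of all tested genes did. The same sign was also called for 247 of them, which is 71.0% of the M colony calls and 25.3% of the B colony calls, and none was called with the opposite sign. Their median change was 0.57 in M colonies, by whose values they were chosen, and 0.54, counted in the same direction, in B colonies. Across the 348 genes the log2 fold changes of the 2 environments had a Pearson r of 0.967, and across all genes 0.737, as a description over genes that are not independent. Without the 3 libraries that stood apart, 459 genes were called in M colonies and 494 in B colonies, with 256 in common at the same sign (55.8% and 51.8% of each).

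The 101 genes called in M colonies and not in B colonies are not thereby particular to M colonies, and 95 of them had the same sign in both. The difference of the genotype effect between environments was tested directly and 0 genes of 9834 passed (0.0%; 614 at an unadjusted p under 0.05; 0 with limma-voom and 1 with DESeq2). The precision of this test was limited. For 199 of the 348 genes (57.2%) the 95% interval of the difference lay within 1.5-fold, and for 276 (79.3%) within 2-fold, so larger differences remained possible at the others.

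The lowest adjusted p of the difference, 0.099, was that of LOC105283796 (chromosome 4), which overlaps a gene on the other strand. It averaged 0.483 ± 0.244 CPM in MinM (SD, n = 20) and 0.388 ± 0.320 CPM in BinM (SD, n = 9), a difference that was not called. In B colonies the median MinB library had 0.688 CPM and the median BinB library 0.738 CPM, while the highest BinB library held 102.2 CPM. LOC105279557 (chromosome 9) had the same feature, with a highest BinB library of 112.3 CPM, a median of 4.54, and M colony means of 4.65 and 4.35 CPM in MinM and BinM. Its adjusted p for the difference was 0.723, and so was that of LOC105277561. LOC105277561, which overlaps a gene on the other strand, had no such high library, with a BinB median of 0.697 and maximum of 1.53 CPM. Its log2 fold change was 0.65 ± 0.28 (SE) in M colonies, which was not called (adjusted p = 0.295). In B colonies it was called with the opposite sign, at −0.93 ± 0.30 (SE, adjusted p = 0.0407).

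In M colonies at day 8, 334 of 9472 genes were called between 14 MinM and 10 BinM brains (3.53%), 140 of them higher in M (1.48%) and 194 lower (2.05%). Of the day 1 calls, 338 were tested at day 8 and 319 (94.4%) had the same sign, where 57.8% of all genes did. The same sign was called again for 173, which is 51.2% of the day 1 calls tested and 52.1% of the 332 day 8 calls tested at day 1. None was called with the opposite sign. The median change of these genes was 0.55 at day 1 and 0.42 at day 8 in the same direction. Because the genes were chosen by their day 1 values, a smaller median elsewhere cannot be read as a weaker effect. Of the genes with a day 1 change of at least 2-fold, 74 of 92 were called again, and of those under 1.5-fold, 65 of 176. In all, 148 genes were called with one sign in M colonies at day 1, in B colonies at day 1 and in M colonies at day 8 (67 higher and 81 lower in M).

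**Figure D5:**
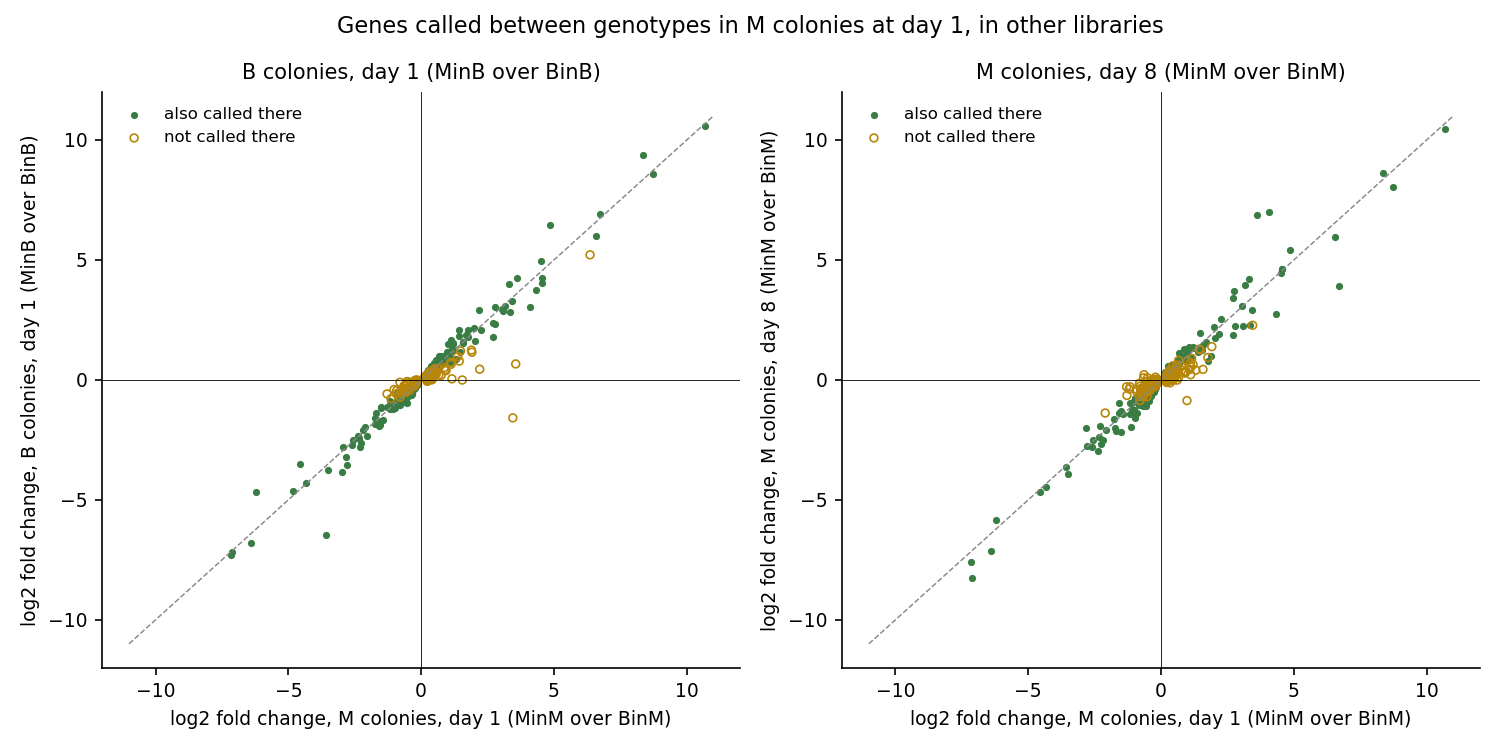
Fitted log2 fold changes of the 348 genes called between MinM and BinM at day 1 (horizontal axis) against the same genotype contrast in other libraries (vertical axis), for B colonies at day 1 (left, 348 genes) and M colonies at day 8 (right, 338 genes). Filled points were also called there and open points were not, and the dashed line marks equal change. The axes are wide beside the median called change of 0.57, so nearness to the line says little about small changes. Pearson r was 0.967 and 0.966 across the called genes shown. It was 0.737 and 0.725 across all genes tested in both contrasts, and 0.471 and 0.298 across those not called in M colonies at day 1.

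The genotype effect in M colonies differed between day 8 and day 1 at 7 of 10056 genes (0.0696%), with 1 difference positive (0.00994%) and 6 negative (0.0597%). The titles of the libraries take different forms at the 2 ages, so age and a possible second set of libraries cannot be told apart. LOC105279007, lower in M at day 1, was lower by more at day 8, at 313.1 ± 16.8 CPM in MinM (SD, n = 14) and 575.5 ± 35.9 CPM in BinM (SD, n = 10). Its log2 fold change was −0.88 ± 0.04 at day 8 and the difference from day 1 was −0.41 ± 0.06 (SE; adjusted p = 3.3e-05). LOC105285380 was higher in M at day 1 (16.6 ± 6.62 CPM in MinM and 8.42 ± 3.24 CPM in BinM; log2 fold change 0.98 ± 0.24, adjusted p = 0.00656). At day 8 it averaged 2.53 ± 1.14 CPM in MinM and 4.61 ± 2.33 CPM in BinM, which was not called (adjusted p = 0.0669), and the difference between ages was −1.84 ± 0.36 (adjusted p = 0.00362). LOC105284463 was higher in M at day 1 (0.51 ± 0.08, adjusted p = 7.96e-06) and was not called at day 8, at 83.5 ± 9.05 CPM in MinM (SD, n = 14) and 78.7 ± 5.22 CPM in BinM (SD, n = 10). With limma-voom the differences of LOC105284463 and LOC105285380 were not called (adjusted p = 0.0544 and 0.135). The other 4 were not called at day 1. Of these, LOC105279708 was higher in M at day 8 (0.67 ± 0.13), and LOC105281519 (−1.13 ± 0.14), LOC105275706 (−0.33 ± 0.05) and LOC105287393 (−0.34 ± 0.07) were lower in M (SE for each).

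Genes that differed between ages in B colonies were also counted. Of 594 genes at least 2-fold lower there at day 8 than at day 1, 10 were called between genotypes (1.68%), and of 281 genes at least 2-fold higher at day 8, 10 were called (3.56%), beside 3.54% of all genes.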

How the data were processed

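The authors deposited whole-number counts per gene for 96 libraries, not normalised, over 13755 features. STAR 2.7.8a and featureCounts are the tools named in the submitters' processing notes. How strand and multiply aligned reads were treated, and which genome build and lineage served as reference, is not stated there or in the labels. Chromosomes and gene classes came from RefSeq's Obir_v5.4 annotation, whose gene spans matched the deposited ones exactly for 100% of 13553 features (tRNA genes aside). Coordinates are the deposited ones. The annotation pairs no product names, so lists by gene function and cell type markers were void, and no sequences were printed.

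The counts were fitted with edgeR 4.0.16 in R 4.3.3 (TMM scaling, filterByExpr with a minimum count of 10, robust quasi-likelihood F test, Benjamini-Hochberg adjustment over all genes tested, threshold 0.05). The 4 groups of day 1 (50 libraries) shared 1 fit, the 4 groups of day 8 (46 libraries) another, and the difference between ages came from a fit of all 96. All adjusted p-values are edgeR's unless another tool is named. CPM values are edgeR's, scaled by TMM. Standard errors were derived from the F statistics. The procedure was also run on simulated counts, drawn independently for each library with the spread that edgeR fitted. Such counts cannot show how it behaves where ants shared a colony or a library stands apart. DESeq2 1.42.0 and limma-voom (limma 3.58.1) were alternatives, beside other scalings, filters and sets of libraries.

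Groups came from the labels, and replicate numbers of day 1 from the titles. Which ants shared a colony is not given, so p-values treat individuals as independent. No libraries of a group were near-identical (lowest chi-square per gene 9.08). No molecular identifiers are named, so floors cover counting error only. Genes named were, among those called and averaging 1 CPM or more in either group, the 10 largest changes and the 5 lowest p-values per direction. To these were added genes averaging under 0.1 CPM in one genotype but 1 CPM or more in the other, up to 4 genes of lowest p on chromosome 13 and among lncRNAs, up to 3 called genes per direction with a mean of at least 200 CPM, genes of runs of 3 or more, and the 3 lowest p-values of each difference. The other 4 genes that differed between ages, and the neighbours of runs, were named after their values were seen. The comparison and the lists were chosen with earlier results of these data known.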

Additional observations from a re-analysis of the deposited data

Results flagged for a closer look

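In 4 of the 48 groups of 9 BinM values tested, 1 library lay apart from the other 8 by Dixon's test. Chance does so in about 5% of groups of normally distributed values. That rate does not hold for CPM values with many zeros. BinM replicate 8 held 5.76 CPM of LOC105285039 and 6.06 CPM of LOC113562561, neighbours in the run on chromosome 9. Its single count of LOC113563188 came to 0.05995 CPM. The other 8 BinM libraries had no count of LOC113563188, so any single count would have been flagged. BinM replicate 9 held 0.162 CPM of LOC105276730, where the next BinM library had 0.0602 CPM and 5 had no count.

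The genotype effect in M colonies differed between day 8 and day 1 at 7 genes by the interaction test of edgeR. The difference of log2 fold changes was positive at LOC105279708 (0.91). It was negative at LOC105279007 (−0.41), LOC105281519 (−0.95), LOC105287393 (−0.54), LOC105285380 (−1.84), LOC105275706 (−0.36) and LOC105284463 (−0.43).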

How the results depend on the processing

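The count of genes called between MinM and BinM at day 1 was 348. It was 346 with DESeq2 size factors, 315 with library totals, 355 without a filter, 342 with limma-voom, 424 with DESeq2, 340 with only the 29 libraries and 383 with the maturity score as a covariate. Under the strict filter of 10 CPM, which tests 7169 genes, it was 191, and all 191 were among the 208 called genes still tested. Leaving out 1 library at a time gave 299 to 354 calls. Every called gene that was still tested kept its sign in each of these settings. Of the 39 named genes called at day 1, 35 were called in every setting in which they were tested, and the others were LOC105276730, LOC105279452, LOC105286109 and LOC105279274. With only the 29 libraries, 293 of the 334 called genes still tested were called again. The replicate block by title number gave 292 calls (138 higher and 154 lower in M), 708 in B colonies and 0 for the difference between environments. Under the block, 263 of the 348 calls in M colonies and 617 of the 978 in B colonies were kept. The correlations of same-numbered libraries ran from −0.414 to 0.392 over 9 pairs, and 5 were over 0.1. In 0 pairs did a library correlate best with its own number. Whether libraries of the same title number belong together was not tested. Under that block the uncalled genes LOC105283796 (−0.12) and LOC105275706 (−0.0087) changed sign. In B colonies 494 genes were called without the libraries that stood apart, in place of 978. DESeq2 called 1 difference between environments, LOC105283796 (adjusted p = 0.000915). At day 8 the strict filter gave 204 calls in place of 334. DESeq2 called 12 differences between ages and limma-voom 5, in place of 7. LOC105284463 was lost with library totals and limma-voom (adjusted p = 0.0747 and 0.0544), and LOC105285380 with limma-voom (adjusted p = 0.135). The causes were not tested, except that a strict filter tests fewer genes.

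Of the called genes, 23 had a mean under 1 CPM in both groups. The median half-width of the 95% interval of a log2 fold change was 0.19 over all genes and 0.23 over called genes. At 10 called genes (2.87%) a single library held more than 50% of the summed CPM of MinM or of BinM. This takes in genes almost absent from 1 genotype, such as LOC113563188 with its single BinM count. It therefore does not by itself mean that a call rests on 1 library. At LOC105276730, however, MinM replicate 15 held 39.5 CPM against a MinM mean of 3.60 CPM. That call was lost in 11 of the 29 fits that left out 1 library, the fit without replicate 15 among them (adjusted p = 0.0924). The share over all genes tested was not counted.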
